A study of Mus musculus with 24 samples.

Results

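The genes described here drive, carry out or restrain the cell cycle of mouse embryonic fibroblasts. Members were found by symbol in the authors' deposited table and by the paired Ensembl identifier in the count files. All 35 members were present among 45706 gene entries, and all 35 passed the filter on low counts that left 15221 genes for testing. By role they comprised 10 genes of origin licensing and the replicative helicase, 4 of DNA and nucleotide synthesis, 5 drivers of G1 and of entry into S phase, 13 genes of mitosis and its preparation, and 3 inhibitors of cyclin-dependent kinases (CDKs).

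As background, a cell commits to division in G1, when D-type cyclins activate Cdk4 and Cdk6 and cyclin E activates Cdk2. The kinases inactivate the retinoblastoma proteins and so free E2F factors, which switch on genes for DNA synthesis. Cdc6 and Cdt1 load the Mcm2 to Mcm7 helicase on replication origins, and Cdc45 and the GINS complex activate it in S phase. Cyclin A, cyclin B and Cdk1 then lead the cell into mitosis, where Aurora kinases, Plk1 and the Bub1 checkpoint govern chromosome segregation. CDK inhibitors of the Cip/Kip and INK4 families hold these kinases back. Glucocorticoids are known to slow or stimulate division depending on the cell type, and they act through the glucocorticoid receptor (GR), a hormone-activated transcription factor.

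The study sequenced polyadenylated RNA of 24 libraries, 3 in each of 8 groups, and its title asks whether GR needs to bind DNA itself for its functions. The cells were fibroblasts of male C57BL/6 embryos of day 13.5, freed of head and inner organs, digested with trypsin and grown for 7 days in DMEM with serum. The genotypes were GR wt / wt, called wild type here, and GR Zn/Zn, a mutant of the receptor that the labels name without describing the change. Each genotype was given ethanol vehicle for 16 h, 1 uM dexamethasone (Dex, a synthetic glucocorticoid) in ethanol for 16 h, ethanol for 16 h with bacterial lipopolysaccharide (LPS, an innate immune stimulus) at 100 ng/ul for 6 h, or Dex for 16 h with that LPS dose for 6 h. All groups thus shared strain, sex, embryo age, culture and the ethanol solvent. The labels do not say whether replicates were separate embryos or dishes. The p-values below therefore measure the spread between libraries, which may be technical. An effect of genotype and an effect of the particular embryos cannot be told apart.

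Total counts on genes, in units of 1000000 reads, were 18.9 to 25.5 in 21 libraries and 43.9 to 58.0 in the other 3, which the labels number in a separate library series. Replicates 1 and 3 of the wild-type group given both agents, replicate 1 of GR Zn/Zn vehicle, replicate 2 of GR Zn/Zn with LPS and replicate 2 of GR Zn/Zn with Dex and LPS stood apart from their replicates. Replicate 3 of the first of these groups and the next 2 libraries named are the 3 deep ones. Summed liver markers ran from 0.590 to 190 CPM over all libraries, and the deep libraries, at 189.6, 167.7 and 113.6 CPM, held 3 of the 4 highest sums. Pairs of replicates without these 5 libraries differed by a chi-square of 1.53 to 4.72 per degree of freedom over genes, and pairs with at least 1 of them by 8.09 to 56.3. In the wild-type group given both agents no pair was close: 22.0 for replicates 1 and 2, 19.0 for 2 and 3, and 56.3 for 1 and 3. These values do not show that replicate 2 is the typical library of that group. Nr3c1, which encodes GR, was read at 50.5 to 96.1 counts per 1000000 reads (CPM) in the 12 wild-type libraries and at 69.6 to 110.7 CPM in the 12 GR Zn/Zn libraries, so the count of this gene does not show the mutation. Fibroblast markers fitted the label in all 24 libraries, with 10 markers summing to 19315 CPM or more, and erythroid markers summed to 0.549 CPM or less. In RNA from a whole dish, fewer cells in a phase of the cycle and less RNA per cell cannot be told apart.

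RefSeq promoter sequence (GRCm38.p6) was at hand for 27 of the 35 members, out of 27025 genes. Cdkn1c, Ccnd1 and Mcm4, which are called with Dex in wild type below, were among the members without sequence and were not searched. The 250 bases before each start were searched on both strands for the words below. The E2F words TTTCCCGC, TTTGGCGC, TTTCGCGC and TTTGCCGC occurred in 5 of 27 members and in 2.16% of all genes with a promoter, and 4 of these 5 were among the 8 licensing and helicase genes matched. The words TTTGAA and TTCGAA of the CHR element, a site found in promoters of mitotic genes, occurred in 9 of 27 members and 19.6% of all genes, among them 6 of 11 mitosis genes. CCAAT occurred in 20 of 27 members and 37.5% of all genes, among them 10 of 11 mitosis genes. AGAACA, the core hexamer that GR recognises, occurred in 4 of 27 members and 18.2% of all genes. Its inverted repeat with a spacer of 3 bases, which contains that hexamer, occurred in 0 of 27 members and 3 of all 27025 genes. A match is a run of letters in this window and not a measured site.

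The 100 bases just before the start are shown for 5 members, chosen because each role of the replication and mitosis genes is represented and because Rrm1 and Rrm2, the partner subunits of ribonucleotide reductase, moved together below. Capitals mark the E2F word in Mcm6, the CHR words in Cdk1 and Cdc20 and the CCAAT words in Rrm1 and Rrm2. The stretches lie at chr1:128359706-128359805 (minus strand), chr10:69352913-69353012 (minus), chr4:118437344-118437443 (minus), chr7:102441595-102441694 (plus) and chr12:24708154-24708253 (plus), in the order given.
Mcm6: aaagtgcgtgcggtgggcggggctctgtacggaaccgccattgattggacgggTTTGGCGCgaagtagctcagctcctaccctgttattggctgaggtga
Cdk1: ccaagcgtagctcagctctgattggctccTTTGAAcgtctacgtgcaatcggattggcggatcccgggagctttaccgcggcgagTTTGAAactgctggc
Cdc20: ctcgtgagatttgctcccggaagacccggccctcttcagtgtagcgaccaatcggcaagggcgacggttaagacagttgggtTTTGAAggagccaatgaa
Rrm1: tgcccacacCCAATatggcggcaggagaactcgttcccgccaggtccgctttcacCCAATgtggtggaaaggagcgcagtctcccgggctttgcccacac
Rrm2: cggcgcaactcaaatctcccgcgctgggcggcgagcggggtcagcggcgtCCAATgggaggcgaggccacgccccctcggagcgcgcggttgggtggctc

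Levels of the members differed widely among themselves in wild-type vehicle cells. Per kilobase of exon, the highest mean levels were those of Ccnd2 (104 CPM per kb), Rrm2 (81.3), Cdc20 (63.8), Ccnd1 (52.5) and Pcna (45.9). The lowest were those of Cdkn2c (4.51), Cdc6 (4.67) and Cdt1 (6.11). Messages of all 5 roles were thus read in untreated cultures, and the marker of dividing cells Mki67 stood at 215, 218 and 223 CPM there. In the rest of the text a level is in CPM scaled by TMM factors, and a change is a log2 fold change with its standard error from edgeR's quasi-likelihood fit over all 24 libraries (n = 3 per group). A gene is said to rise or fall only at an adjusted p below 0.05 over all 15221 genes.

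**Figure D1:**
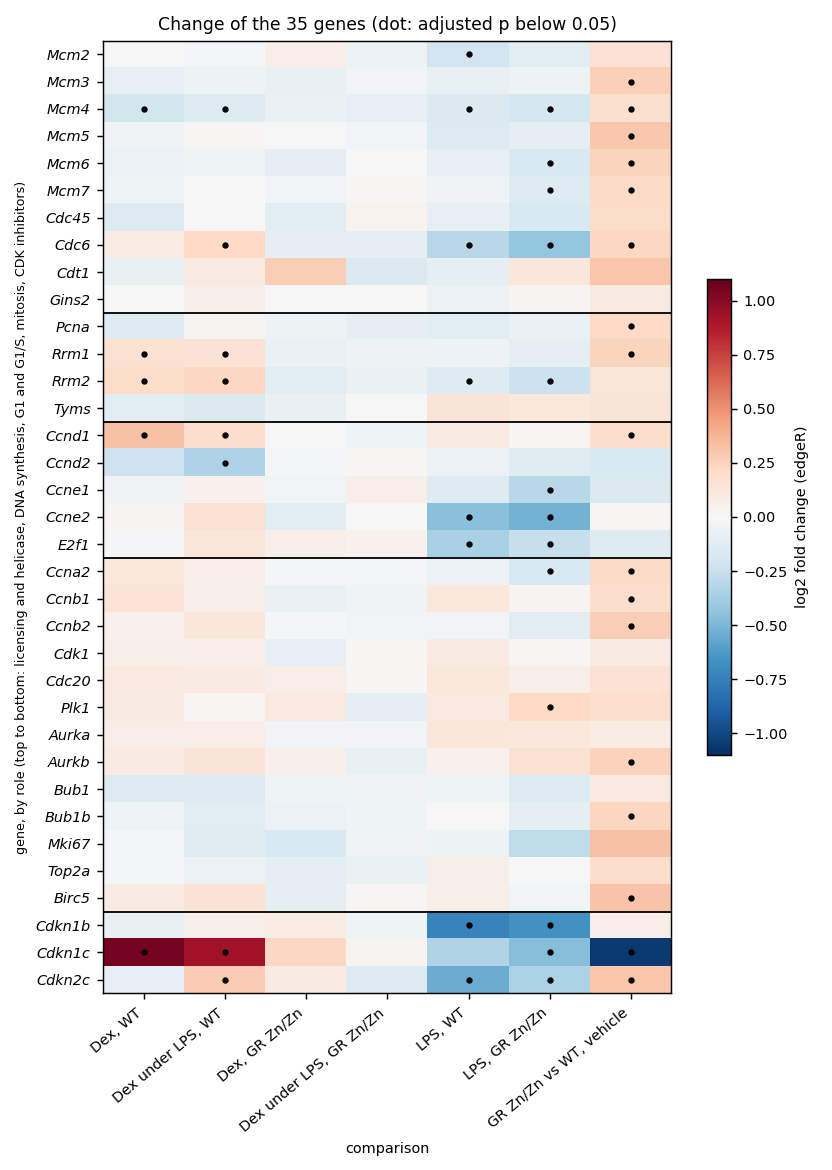
Log2 fold change of each of the 35 members (rows, ordered by role) in 7 comparisons (columns), with colour for the size of the change and a dot where the adjusted p was below 0.05. Cdkn1c stands out with 1.05 for Dex in wild type and -1.05 for GR Zn/Zn against wild type in vehicle, both columns of Dex in GR Zn/Zn hold no dot, and most mitosis genes change by little in the Dex and LPS columns.

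Dex alone in wild-type cells raised a CDK inhibitor and a D-type cyclin at the same time and left mitosis genes without a call. Cdkn1c rose 2.07-fold and Ccnd1 1.25-fold, with small rises of Rrm1 and Rrm2 and a small fall of Mcm4. In all, 4 members rose and 1 fell, while 7.92% of all tested genes rose and 5.24% fell (13.2% together), so the members' share of 5 in 35 was near that background. The median change over the members was -0.01. Over all tested genes the median lay between -0.0132 and 0.0104 in each of the comparisons reported.

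Among the inhibitors, Cdkn1c (ENSMUSG00000037664, chr7:143458339-143461050 in mm10), a Cip/Kip inhibitor of G1 kinases, was read at 32.6, 30.1 and 34.1 CPM in wild-type vehicle and at 71.3, 64.2 and 64.8 CPM with Dex. The lowest Dex library lay well above the highest vehicle library. The change was 1.05 ± 0.15 (adjusted p = 2.73e-05). Cdkn1b, the Cip/Kip inhibitor that accumulates in resting cells, stood at 44.8, 42.8 and 49.0 CPM in vehicle and 43.8, 42.9 and 42.3 CPM with Dex. Cdkn2c, an INK4 inhibitor of Cdk4 and Cdk6, stood at 10.9, 12.4 and 13.0 CPM and, with Dex, at 11.3, 11.8 and 11.02 CPM. Both ranges overlapped, with estimates of -0.08 ± 0.08 (95% interval -0.25 to 0.09) for Cdkn1b and -0.09 ± 0.08 (-0.26 to 0.08) for Cdkn2c.

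The D-type cyclins, partners of Cdk4 and Cdk6, took opposite directions. Ccnd1 (chr7:144929931-144939925) was read at 244, 250.02 and 248 CPM in vehicle and at 304, 311 and 315 CPM with Dex, a separate range (0.33 ± 0.05, adjusted p = 0.000126). Ccnd2 stood at 989, 986 and 974 CPM in vehicle and at 849, 847 and 817 CPM with Dex, also without overlap, but its change of -0.23 ± 0.08 missed the threshold (adjusted p = 0.0676). Cyclin E2 (Ccne2) stood at 33.8, 30.6 and 33.9 CPM and then 33.3, 33.7 and 33.1 CPM, and E2f1 at 43.7, 45.0 and 46.0 CPM and then 43.5, 44.5 and 44.5 CPM. These ranges overlapped, with intervals of -0.14 to 0.19 for Ccne2 and -0.18 to 0.13 for E2f1.

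**Figure D2:**
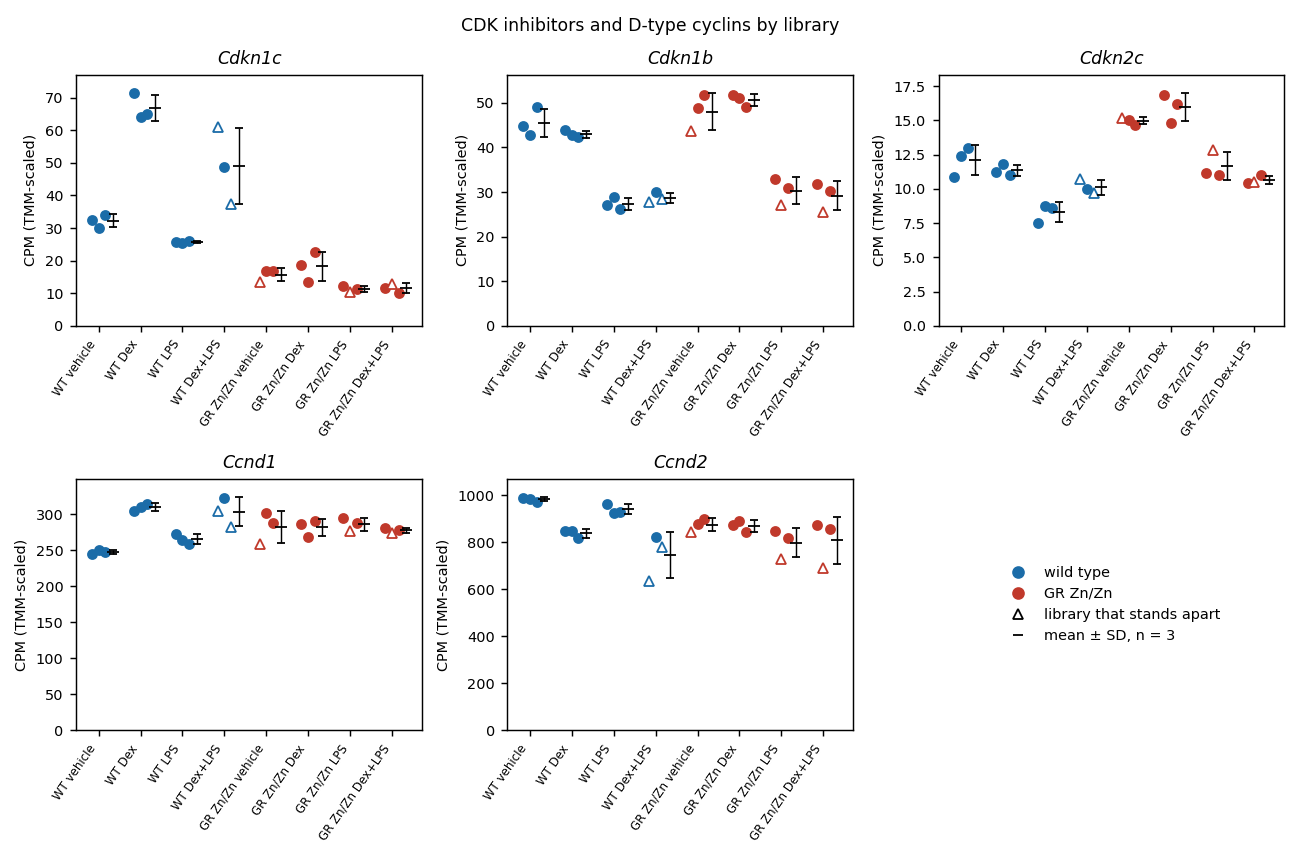
CPM of Cdkn1c, Cdkn1b, Cdkn2c, Ccnd1 and Ccnd2 in each of the 24 libraries (points) by group, with the group mean and SD (n = 3). Cdkn1c in wild type reaches 64.2 to 71.3 CPM with Dex, while no GR Zn/Zn library exceeds 22.6 CPM, and Cdkn1b is low in the 4 groups that received LPS.

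In nucleotide synthesis, both subunits of ribonucleotide reductase, the enzyme that makes deoxynucleotides, rose slightly. Rrm1 was read at 299, 301 and 290.4 CPM in vehicle and 332, 336 and 333 CPM with Dex (0.17 ± 0.04, adjusted p = 0.0116). Rrm2 was read at 227, 227 and 222 CPM and then 258, 254 and 264 CPM (0.20 ± 0.05, adjusted p = 0.00663). Neither gene's ranges overlapped. Tyms, thymidylate synthase, stood at 51.7, 52.9 and 51.6 CPM in vehicle and 48.8, 48.4 and 45.9 CPM with Dex (-0.13 ± 0.06, adjusted p = 0.185), and Pcna, the sliding clamp of DNA polymerase, gave -0.14 ± 0.06 (adjusted p = 0.137).

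Of the 10 licensing and helicase genes, 1 fell and 8 of the estimates lay below 0, with a median of -0.06. Mcm4, a helicase subunit, was read at 137, 137 and 138 CPM in vehicle and at 116, 121 and 122 CPM with Dex (-0.20 ± 0.05, adjusted p = 0.00793), and its ranges did not overlap. Mcm3 stood at 95.2, 96.0 and 91.9 CPM and then 89.0, 91.0 and 86.3 CPM, and Cdc6 at 24.9, 23.6 and 24.8 CPM and then 24.4, 26.1 and 27.3 CPM, neither with a call. Of the 13 mitosis genes, 0 changed, with estimates of -0.15 to 0.15 and intervals reaching from -0.31 to 0.29. Ccnb1, the cyclin that partners Cdk1, was the nearest to a call, at 113, 117 and 114 CPM in vehicle and 127, 126 and 128 CPM with Dex (0.15 ± 0.05, adjusted p = 0.0692). Aurka, an Aurora kinase of the spindle, stood at 77.1, 77.5 and 74.9 CPM in vehicle and 78.3, 78.4 and 85.0 CPM with Dex, without a call.

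The ranges of 3 libraries lay apart for 10 members upward and 9 downward, while they did so upward for 21.6% and downward for 19.3% of all genes (40.9% together). The calls for Cdkn1c and Ccnd1 held under all alternatives run, but Mcm4 lost its call without Dex replicate 1 (adjusted p = 0.0618), Rrm2 without vehicle replicate 3 (0.0505), and Rrm1 without Dex replicate 1 (0.0533), Dex replicate 3 (0.0508) or vehicle replicate 3 (0.0927). Rrm1 also lost its call with no filter on low counts (0.1145). Without the 5 libraries that stood apart, none of which belongs to the groups compared here, the fit called 13 members, 7 higher and 6 lower, with 27.5% of all genes. Of 8 leukocyte markers tested, 3 fell with Dex, while 5.24% of all genes fell. Summed over 7 markers each, epithelial markers stood at 14.1 to 16.5 CPM in vehicle and 8.28 to 10.8 CPM with Dex, and endothelial markers at 27.2 to 28.6 CPM and 33.0 to 36.4 CPM. The part of these cell types in the changes above was not tested.

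In the presence of LPS, Dex again raised Cdkn1c, Ccnd1, Rrm1 and Rrm2 in wild-type cells and again lowered Mcm4. Cdkn2c and Cdc6 rose and Ccnd2 fell as well. In all, 6 members rose and 2 fell, while 10.5% of all genes rose and 10.6% fell (21% together). The median over the members was 0.07. The contrast compares Dex with LPS against LPS alone, so it shares no library with the contrast of Dex alone, and the difference between these Dex effects was called for 0 members (1.56% of all genes; the largest estimate, for Cdkn2c, was 0.37 with an adjusted p of 0.169).

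Cdkn1c was read at 25.6, 25.5 and 25.9 CPM with LPS alone and at 61.0, 48.6 and 37.4 CPM with Dex and LPS, a 1.90-fold rise (0.92 ± 0.15, adjusted p = 0.000111). The 3 libraries with both agents spread widely, and the lowest, replicate 3, still lay above all LPS libraries. Cdkn2c was read at 7.49, 8.79 and 8.64 CPM with LPS and 10.7, 9.99 and 9.67 CPM with both (0.28 ± 0.09, adjusted p = 0.0212). Cdkn1b stood at 27.0, 28.8 and 26.3 CPM and then 27.8, 29.9 and 28.5 CPM, with overlapping ranges.

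Ccnd1 was read at 272, 265 and 259 CPM with LPS and 305, 322 and 283 CPM with both agents (0.19 ± 0.05, adjusted p = 0.0116). Ccnd2 was read at 964, 927 and 931 CPM with LPS and 634, 822 and 779 CPM with both (-0.34 ± 0.08, adjusted p = 0.00414), the lowest value being that of replicate 1, a library that stood apart. Ccnd1 and Ccnd2 thus lay apart from LPS alone in opposite directions in every library. Rrm1 went from 292, 280.4 and 285 CPM to 310.0, 314 and 337 CPM (0.16 ± 0.04, adjusted p = 0.0101), and Rrm2 from 204, 204 and 205 CPM to 236, 231 and 252 CPM (0.23 ± 0.05, adjusted p = 0.0012). For both subunits the ranges did not overlap.

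Cdc6, which loads the helicase, was read at 19.2, 20.7 and 19.2 CPM with LPS and at 21.5, 21.9 and 25.1 CPM with both agents (0.22 ± 0.07, adjusted p = 0.0302). Mcm4 was read at 121, 124 and 125 CPM and then 106, 109.9 and 119 CPM (-0.14 ± 0.05, adjusted p = 0.0471). The other 8 licensing genes and all 13 mitosis genes were not called. Ranges lay apart for 9 members upward and 4 downward, beside 15.2% and 16.8% of all genes (32% together).

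The calls for Cdkn1c and Rrm2 held under all alternatives run. Without replicate 1 of the Dex and LPS group, Mcm4 (adjusted p = 0.188) and Cdkn2c (0.0807) were not called, and without its replicate 3 Cdc6 was not (0.14 on the log2 scale, adjusted p = 0.167). Without all 5 libraries that stood apart, which leaves 1 library with both agents, Cdc6 gave 0.13 and Cdkn2c 0.25. Leaving out replicate 2 of the Dex and LPS group removed Ccnd1 (0.0728) and Mcm4 (0.113). Leaving out LPS replicate 1 removed Cdkn2c (0.158), Cdc6 (0.146) and Mcm4 (0.0607), LPS replicate 2 removed Rrm1 (0.0966) and Mcm4 (0.101), and LPS replicate 3 removed Ccnd1 (0.0659), Rrm1 (0.0687), Cdc6 (0.14) and Mcm4 (0.114), which left 4 members called. Fitting only the groups compared removed Mcm4 (0.306), Cdc6 (0.162), Rrm1 (0.123), Cdkn2c (0.122), Ccnd1 (0.102) and Ccnd2 (0.0762). With no filter on low counts, Mcm4 (0.2), Cdc6 (0.0732), Rrm1 (0.0577) and Cdkn2c (0.0525) were not called. Cdc6 was also lost with a term for the library number series (0.0671), Ccnd1 with unstranded counts (0.0721) and Mcm4 with a stricter filter (0.0574). The authors' deposited table lists 6 members higher and 4 lower in this comparison.

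In GR Zn/Zn cells, Dex changed 0 of the 35 members without LPS and 0 of 35 with LPS. Over all genes, 0% were called without LPS and 0.00657% with LPS by edgeR (1109 and 889 genes at an unadjusted p below 0.05), and DESeq2 likewise called 0 members in either comparison. The members' estimates ran from -0.17 to 0.27 for Dex alone, with intervals from -0.47 to 0.57, and from -0.16 to 0.07 for Dex under LPS. The median was -0.03 in both.

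Cdkn1c was read at 13.4, 16.9 and 16.9 CPM in GR Zn/Zn vehicle and at 18.6, 13.6 and 22.6 CPM with Dex, with overlap (0.23 ± 0.16, interval -0.11 to 0.57, adjusted p = 0.72). Under LPS it stood at 12.2, 10.5 and 11.2 CPM and, with Dex added, at 11.6, 13.0 and 10.0 CPM (0.03 ± 0.18). Ccnd1 stood at 258, 302 and 288 CPM in vehicle and 287, 269 and 291 CPM with Dex, also with overlap. Rrm1 gave 375, 335 and 343 CPM and then 336, 341 and 326 CPM, and Rrm2 gave 263, 241 and 238 CPM and then 228, 228 and 227 CPM. Every Dex library of Rrm2 lay below every vehicle library, at -0.12 ± 0.05 (adjusted p = 0.675). Such downward separation held for 8 members and upward separation for 1, beside 7.47% and 5.95% of all genes (13.4% together), and under LPS for 3 downward and 0 upward, beside 5.05% and 5.14% (10.2% together).

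**Figure D3:**
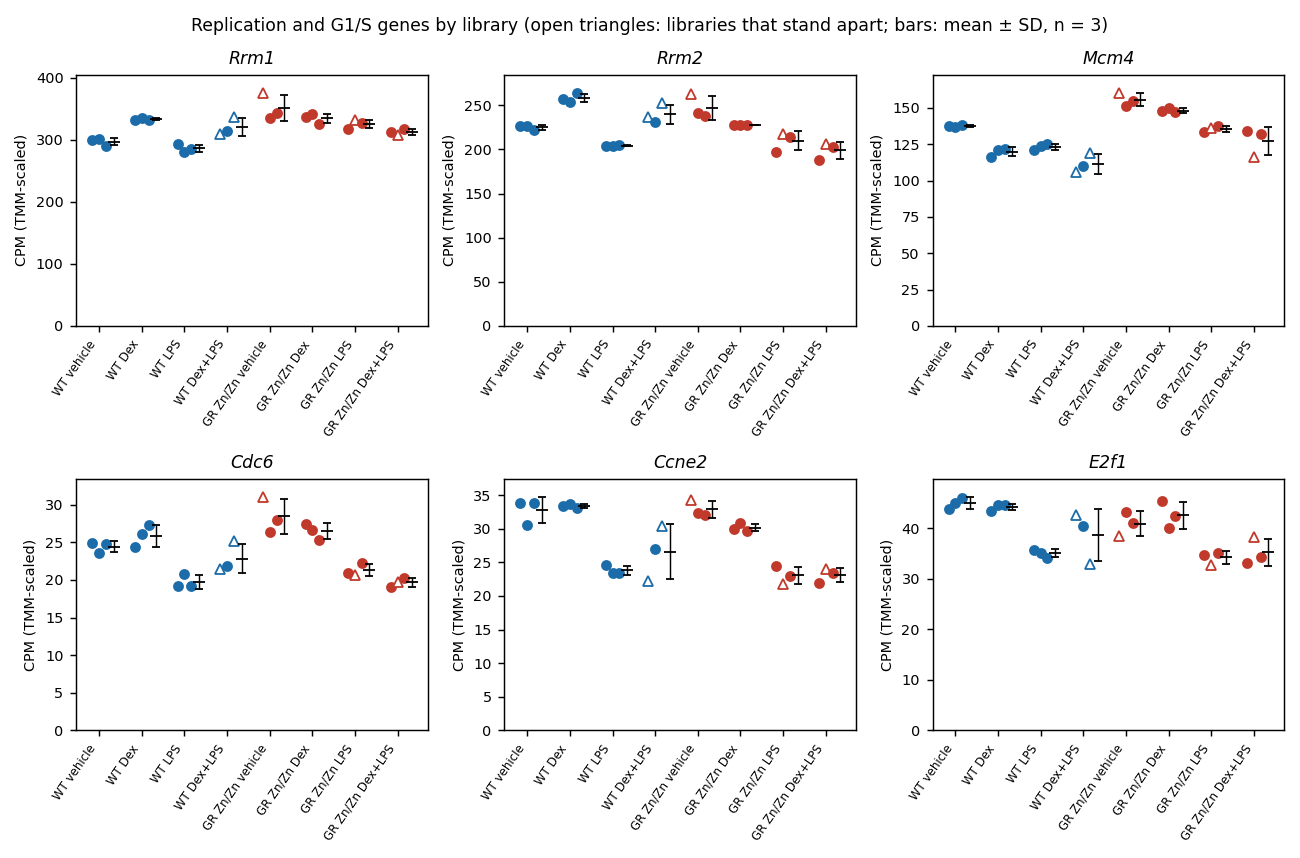
CPM of Rrm1, Rrm2, Mcm4, Cdc6, Ccne2 and E2f1 in each of the 24 libraries (points) by group, with mean and SD (n = 3). With Dex, Rrm2 rises from 222 to 227 CPM up to 254 to 264 CPM in wild type. In GR Zn/Zn it lies at 238 to 263 CPM in vehicle and 227 to 228 CPM with Dex, without a call.

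The difference of the Dex effect between genotypes was tested directly. Without LPS it was called for 4 members, all with a lower Dex effect in GR Zn/Zn (4.4% of all genes in that direction, 2.6% in the other, 6.99% together). These were Cdkn1c (-0.82 ± 0.22, adjusted p = 0.0242), Ccnd1 (-0.33 ± 0.08, 0.0076), Rrm2 (-0.32 ± 0.07, 0.00396) and Rrm1 (-0.24 ± 0.06, 0.0184). Under LPS it was called for the same 4 genes and for Cdkn2c and Cdc6, all 6 lower (5.03% of all genes lower, 5.36% higher, 10.4% together). There Cdkn1c differed by -0.89 ± 0.23 (adjusted p = 0.0147), Rrm2 by -0.31 ± 0.07 (0.00401), Cdkn2c by -0.42 ± 0.12 (0.0229), Rrm1 by -0.22 ± 0.06 (0.024), Cdc6 by -0.33 ± 0.10 (0.0387) and Ccnd1 by -0.24 ± 0.08 (0.0471). Mcm4, which fell with Dex in wild type, was not shown to differ between genotypes (0.13, adjusted p = 0.399, without LPS), nor was Ccnd2 (0.35 ± 0.12, adjusted p = 0.0545, under LPS).

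Rrm2 kept this difference under all alternatives run, with and without LPS. Without LPS, Cdkn1c missed the threshold when GR Zn/Zn Dex replicate 2, GR Zn/Zn vehicle replicate 2 or 3, wild-type Dex replicate 1 or wild-type vehicle replicate 2 was left out (adjusted p up to 0.0675). Rrm1 missed it without GR Zn/Zn Dex replicate 1 or 3, GR Zn/Zn vehicle replicate 1, wild-type Dex replicate 1 or 3 or wild-type vehicle replicate 3 (up to 0.0916). With no filter on low counts, Cdkn1c (0.0769) and Rrm1 (0.165) missed it as well. Under LPS, Cdkn1c missed it only without GR Zn/Zn Dex and LPS replicate 3 (0.059), while Ccnd1, Cdc6 and Rrm1 missed it under most single omissions, up to 0.151, 0.149 and 0.148. Ccnd1, Cdc6 and Rrm1 also missed it with no filter on low counts, with unstranded counts and with only the groups compared fitted (up to 0.134). Cdc6 missed it as well with DESeq2 (0.0809), other scaling (0.0549) and a term for the library number series (0.143). Other scaling also removed Ccnd1 (0.0577), and the series term removed Rrm1 (0.0804). Cdkn2c missed it without wild-type LPS replicate 1 (0.108), GR Zn/Zn LPS replicate 2 (0.128) or GR Zn/Zn Dex and LPS replicate 1 (0.0721). Fitting only the groups compared (0.0848), no filter on low counts (0.0587) and a term for the library number series (0.0658) also removed Cdkn2c. Without all 5 libraries that stood apart, the Cdkn2c estimate shrank from -0.42 to -0.29. That fit leaves 1 library in the wild-type Dex and LPS group, so it is no ground for keeping the call.

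LPS alone lowered Cdkn1b and Cdkn2c of the 3 CDK inhibitors in both genotypes, together with Ccne2, E2f1 and Cdc6 of S phase entry. In wild type, Cdkn1b fell 1.66-fold, Cdkn2c 1.46-fold, Ccne2 1.38-fold, E2f1 1.28-fold and Cdc6 1.24-fold. In all, 8 members fell and 0 rose in wild type, while 12.4% of all genes fell and 14% rose (26.4% together). The mutant had 12 falls and 1 rise, while 17.7% of all genes fell and 19% rose (36.7% together). The LPS effect differed between genotypes for 0 members (0.539% of all genes by edgeR; DESeq2 also called 0 members).

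Cdkn1b (chr6:134920401-134925513) was read at 44.8, 42.8 and 49.0 CPM in wild-type vehicle and at 27.0, 28.8 and 26.3 CPM with LPS (-0.73 ± 0.08, adjusted p = 3.49e-07). The mutant gave 43.6, 48.9 and 51.7 CPM in vehicle and 33.0, 27.0 and 31.0 CPM with LPS (-0.66 ± 0.08, adjusted p = 7.1e-07). Every LPS library lay below every vehicle library of its genotype. Cdkn2c (chr4:109660876-109667189) went from 10.9, 12.4 and 13.0 CPM to 7.49, 8.79 and 8.64 CPM in wild type (-0.54 ± 0.09, adjusted p = 3.45e-05) and from 15.2, 15.0 and 14.7 CPM to 11.1, 12.9 and 11.04 CPM in GR Zn/Zn (-0.35 ± 0.08, adjusted p = 0.00123), again without overlap. Cdkn1c gave -0.33 ± 0.16 in wild type (adjusted p = 0.131) and fell by 0.47 on the log2 scale in GR Zn/Zn (SE 0.17, adjusted p = 0.0338).

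Among the G1 and S phase drivers, Ccne2 was read at 24.6, 23.4 and 23.4 CPM with LPS in wild type, below the 30.6 to 33.9 CPM of vehicle (-0.46 ± 0.08, adjusted p = 0.000126). The mutant went from 34.3, 32.4 and 32.0 CPM to 24.4, 21.9 and 23.0 CPM (-0.52 ± 0.08, adjusted p = 1.66e-05). E2f1, the factor that switches on S phase genes, was read at 35.7, 35.2 and 34.1 CPM with LPS in wild type (-0.36 ± 0.08, adjusted p = 0.00117) and at 34.7, 32.8 and 35.1 CPM in GR Zn/Zn against 38.4, 43.2 and 41.1 CPM in vehicle (-0.26 ± 0.08, adjusted p = 0.011). Neither gene's LPS and vehicle ranges overlapped in either genotype. Ccne1, the other cyclin E, fell in GR Zn/Zn (-0.30 ± 0.06, adjusted p = 0.000396) and gave -0.14 ± 0.06 in wild type (adjusted p = 0.086). The D-type cyclins were not called in either genotype.

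All 10 licensing genes had estimates below 0 with LPS in wild type, 3 of them called, and 4 of 10 fell in GR Zn/Zn. Cdc6 went from 24.9, 23.6 and 24.8 CPM to 19.2, 20.7 and 19.2 CPM in wild type (-0.31 ± 0.07, adjusted p = 0.00222) and from 31.0, 26.4 and 28.0 CPM to 20.96, 20.7 and 22.2 CPM in GR Zn/Zn (-0.43 ± 0.07, adjusted p = 3.27e-05). The LPS and vehicle ranges of Cdc6 were separate in both genotypes. Mcm4 fell in wild type (-0.16 ± 0.05, adjusted p = 0.0203) and in GR Zn/Zn (-0.20 ± 0.05, adjusted p = 0.00314), Mcm2 in wild type (-0.21 ± 0.07, adjusted p = 0.0222), and Mcm6 and Mcm7 in GR Zn/Zn (adjusted p = 0.00833 and 0.0276). Rrm2 fell in wild type (-0.14 ± 0.05, adjusted p = 0.0377) and in GR Zn/Zn (-0.24 ± 0.05, adjusted p = 0.000433). Tyms stood at 55.7, 58.9 and 58.1 CPM with LPS in wild type, above the 51.6 to 52.9 CPM of vehicle, without a call (0.14 ± 0.06, adjusted p = 0.0699).

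Of the 13 mitosis genes, 0 changed with LPS in wild type (-0.06 to 0.12). Ccna2, cyclin A, stood at 137, 138 and 132 CPM in wild-type vehicle and 128, 135 and 127 CPM with LPS, and Aurka at 80.9, 83.0 and 86.3 CPM with LPS. Ccna2 of GR Zn/Zn cells fell from 164, 151 and 154 CPM to 139.6, 129.8 and 150.4 CPM (-0.16 ± 0.05, adjusted p = 0.0108). Plk1, a mitotic kinase, rose there from 85.2, 99.9 and 99.0 CPM to 101.7, 125.9 and 102.5 CPM (0.22 ± 0.08, adjusted p = 0.0306). The Plk1 call rested on libraries that stood apart: without GR Zn/Zn LPS replicate 2 the estimate was 0.10 (adjusted p = 0.335), and without vehicle replicate 1 it was 0.14 (0.195). Without all 5 such libraries Plk1 gave 0.03 (adjusted p = 0.654) and Ccna2 -0.08 (0.0734).

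**Figure D4:**
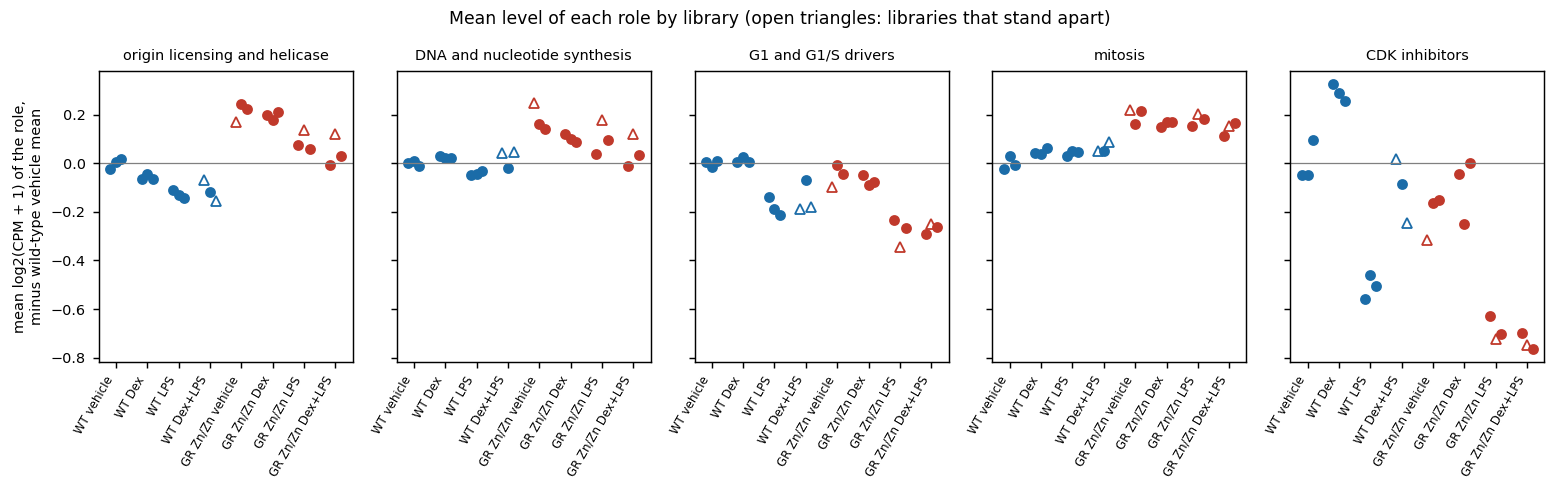
Mean log2(CPM + 1) over the members of each role in every library, minus the wild-type vehicle mean, by group, in blue for wild type and red for GR Zn/Zn, with open triangles for the 5 libraries that stood apart. CDK inhibitors lie at 0.25 to 0.33 with Dex in wild type, where of the 3 genes only Cdkn1c rose, and at -0.56 to -0.46 with LPS, while mitosis genes lie at 0.16 to 0.22 in GR Zn/Zn vehicle.

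Ranges lay apart for 8 members upward and 17 downward with LPS in wild type, beside 26.5% and 25.8% of all genes (52.4% together), and for 5 upward and 18 downward in GR Zn/Zn, beside 24.4% and 24.5% (48.9% together). Cdkn1b, Cdkn2c, Ccne2, E2f1 and Cdc6 kept their wild-type calls under all alternatives run. With no filter on low counts, Mcm4 (adjusted p = 0.0959) and Rrm2 (0.158) were not called, and with unstranded counts Rrm2 was not (0.0519). Mcm4 lost its call without any single library but LPS replicate 3 (adjusted p up to 0.0996), Rrm2 without any of the 6 (up to 0.1248), and Mcm2 without LPS replicate 2 (0.0898), LPS replicate 3 (0.061), vehicle replicate 2 (0.0732) or vehicle replicate 3 (0.0846). In GR Zn/Zn, single omissions removed the calls of Cdkn1c (without LPS replicate 2 or 3 or vehicle replicate 2 or 3, up to 0.108), Mcm7 (0.0836, without LPS replicate 1), Mcm6 (0.0684, without vehicle replicate 1) and Ccna2 (0.0756, without LPS replicate 2, and 0.059, without vehicle replicate 1). Endothelial markers summed to 27.2 to 28.6 CPM in vehicle and 21.2 to 21.8 CPM with LPS in wild type, and to 10.8 to 12.9 CPM and 7.26 to 8.16 CPM in GR Zn/Zn, and their part in the changes was not tested. Both LPS contrasts share their vehicle libraries with the Dex contrasts of the same genotype.

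Vehicle-treated GR Zn/Zn cells differed from wild type by slightly higher replication and mitosis genes and by a lower level of Cdkn1c. Of the 35 members 16 were higher in GR Zn/Zn and 1 was lower, while 8.69% of all genes were higher and 10.1% lower (18.8% together). The median over the members was 0.19, with 31 estimates above 0 and 4 below. By role, 6 of 10 licensing genes, 2 of 4 synthesis genes, 1 of 5 G1 drivers, 6 of 13 mitosis genes and 1 of 3 inhibitors were higher.

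Cdkn1c was 2.07-fold lower in GR Zn/Zn vehicle, at 13.4, 16.9 and 16.9 CPM against 32.6, 30.1 and 34.1 CPM in wild type (-1.05 ± 0.16, adjusted p = 3.92e-05). Cdkn2c was higher, at 15.2, 15.0 and 14.7 CPM against 10.9, 12.4 and 13.0 CPM (0.31 ± 0.08, adjusted p = 0.00788), and Cdkn1b was not called (0.07 ± 0.08, interval -0.09 to 0.24). Neither Cdkn1c nor Cdkn2c overlapped between genotypes, and they moved in opposite directions. Ccnd1 was higher (0.19 ± 0.05, adjusted p = 0.0134), while Ccnd2, Ccne1, Ccne2 and E2f1 were not called.

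In the helicase, Mcm3 was read at 110.0, 118 and 110.5 CPM in GR Zn/Zn against 95.2, 96.0 and 91.9 CPM (0.26 ± 0.04, adjusted p = 9.86e-05). Mcm6 was read at 183, 162 and 165 CPM against 145, 144 and 143 CPM (0.24 ± 0.05, adjusted p = 0.000622), and Mcm5 at 92.3, 109 and 105 CPM against 82.2, 81.2 and 85.9 CPM (0.29 ± 0.06, adjusted p = 0.0012). For these 3 subunits every GR Zn/Zn library lay above every wild-type library. Mcm4, Mcm7 and Cdc6 were also higher, by 0.18, 0.21 and 0.23, and all 10 licensing genes had estimates above 0 (0.10 to 0.30). Rrm1 was read at 375, 335 and 343 CPM against 299, 301 and 290.4 CPM (0.24 ± 0.04, adjusted p = 0.00028). Pcna was higher by 0.22 ± 0.06 (adjusted p = 0.01).

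All 13 mitosis genes had estimates above 0 (0.09 to 0.32). Bub1b, a kinase-like protein of the spindle checkpoint, was read at 98.7, 92.8 and 96.0 CPM in GR Zn/Zn against 79.2, 83.7 and 81.7 CPM (0.23 ± 0.04, adjusted p = 0.000358). Ccnb2 was higher by 0.27 ± 0.06 (adjusted p = 0.00278), Ccna2 by 0.21 ± 0.05 (0.00352), Aurkb by 0.26 ± 0.07 (0.00695), Birc5, a partner of Aurkb, by 0.31 ± 0.08 (0.00827) and Ccnb1 by 0.19 ± 0.05 (0.01). Mki67 had the highest estimate of the role but a wide spread, with 268.6, 240.2 and 311.3 CPM in GR Zn/Zn (0.32 ± 0.14, adjusted p = 0.132).

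Ranges lay apart for 25 members upward and 4 downward, beside 17% and 19.8% of all genes (36.7% together). Without GR Zn/Zn vehicle replicate 1, a library that stood apart, Mcm4 (adjusted p = 0.062), Cdc6 (0.181), Pcna (0.0568) and Ccnb1 (0.0885) were not called. Leaving out GR Zn/Zn vehicle replicate 2 removed Ccnd1 (0.0565), wild-type vehicle replicate 1 removed Cdkn2c (0.0507), wild-type vehicle replicate 2 removed Cdc6 (0.103), and wild-type vehicle replicate 3 removed Cdc6 (0.0511) and Birc5 (0.0501). Without all 5 libraries that stood apart, 25 members were higher and 3 lower, with 29.3% of all genes called.

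Markers of other cell types moved with genotype as well. In vehicle, 8.69% of all genes were higher in GR Zn/Zn and 10.1% lower. Summed over 10 leukocyte markers, wild-type libraries held 61.0 to 80.3 CPM and GR Zn/Zn libraries 156 to 192 CPM, and all 8 leukocyte markers tested were higher in GR Zn/Zn vehicle, among them Adgre1 (1.40), Lyz2 (1.36) and Ptprc (0.73). Of 10 fibroblast markers 7 were higher, among them Pdgfra by 2.21 and Lum by 1.29, with sums of 19315 to 24110 CPM in wild type and 21885 to 29976 CPM in GR Zn/Zn. Summed endothelial markers lay in the other direction, at 21.2 to 36.4 CPM in wild type and 7.26 to 12.9 CPM in GR Zn/Zn. Skeletal muscle markers likewise summed to 81.2 to 136 CPM and to 29.1 to 41.2 CPM, and epithelial markers to 7.53 to 16.5 CPM and to 3.15 to 5.02 CPM. The part of these cell types in the members' differences was not tested.

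The genotype contrast was repeated within each treatment, a comparison added after values were seen. The contrasts in Dex, in LPS and in Dex with LPS were fitted only once, and no alternatives were run for them. In Dex, 16 members were higher and 2 lower (11.3% and 15.2% of all genes; 26.5% together), in LPS 13 and 3 (12.6% and 11.9%; 24.5%), and in Dex with LPS 7 and 5 (15% and 16.8%; 31.7%). Medians over the members were 0.16, 0.12 and 0.11. Mcm3, Mcm4, Mcm5, Mcm6 and Bub1b were higher in GR Zn/Zn in all 4 treatments, and Cdkn1c was lower in all 4. The Cdkn1c difference was -1.87 ± 0.16 in Dex (adjusted p = 5.03e-09), -1.19 ± 0.17 in LPS (1.28e-05) and -2.08 ± 0.17 in Dex with LPS (1.51e-09), so its level was 3.66-fold and 4.22-fold lower with Dex and with both agents. No GR Zn/Zn library reached the lowest wild-type library of any treatment (22.6 CPM at most against 25.5 CPM at least).

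Several members were called in some treatments and not in others. Rrm2 was not called in vehicle (0.14, adjusted p = 0.0531) and was lower in GR Zn/Zn with Dex (-0.18 ± 0.05, adjusted p = 0.00673) and with Dex and LPS (-0.27 ± 0.05, adjusted p = 0.000129). Cdc6 was higher in vehicle, a call kept in 10 of 15 alternatives, and lower with Dex and LPS (-0.22 ± 0.07, adjusted p = 0.02). In the groups with both agents, wild-type replicates 1 and 3 and GR Zn/Zn replicate 2 stood apart, so a reversal of Cdc6 is not established. Cdt1, the partner of Cdc6 in loading the helicase, was higher by 0.65 ± 0.12 with Dex (adjusted p = 0.000162) and by 0.53 ± 0.12 with LPS (0.00175). In vehicle (0.30, adjusted p = 0.0802) and with both agents (0.27, 0.0853) its estimate had the same sign but was not called. Ccne1 was lower with LPS (-0.31 ± 0.06, adjusted p = 0.000521) and with both agents (-0.28 ± 0.06, 0.000808). Its estimates in vehicle (-0.16, adjusted p = 0.0807) and with Dex (-0.14, 0.0865) were also negative, without a call. For neither gene was the Dex or LPS effect called different between genotypes.

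**Figure D5:**
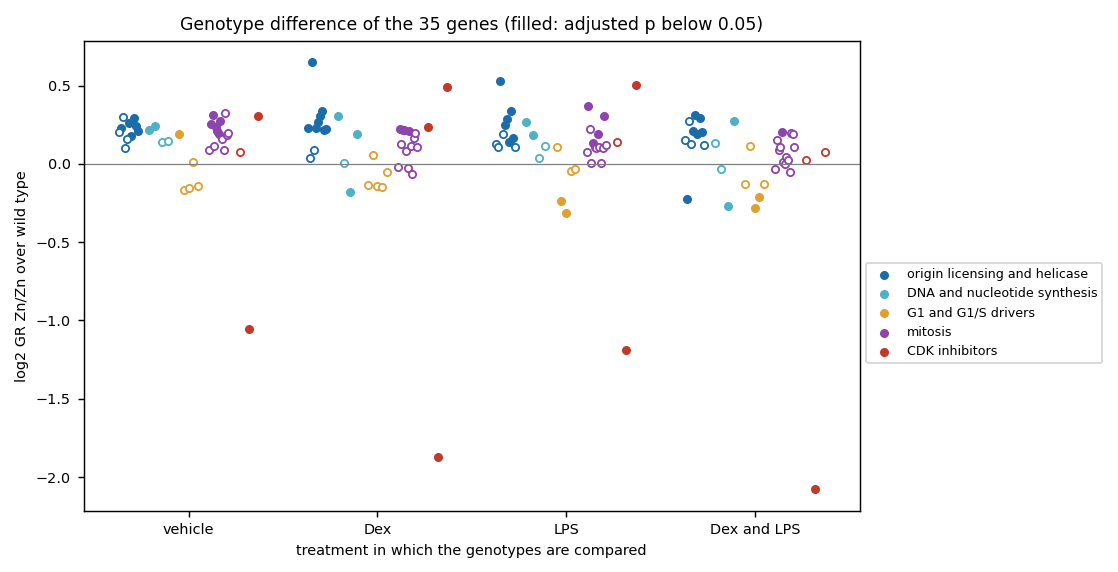
Log2 fold change of GR Zn/Zn over wild type for each of the 35 members in vehicle, Dex, LPS and Dex with LPS, with filled points for an adjusted p below 0.05. Cdkn1c lies far to the low side in all 4 treatments (-1.05 to -2.08), while the Mcm genes lie slightly to the high side.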

How the data were processed

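PolyA RNA of 24 libraries was measured, 3 in each of 8 groups named from the labels' titles and genotypes. The authors deposited raw read counts per gene and library, made with STAR 2.4.2 or 2.4.2a on mm10, per the submitters' processing notes, which also name FastQC, DESeq and DESeq2. The stranded column matching the kit was used. Other strand reads were 2.70 to 2.91% of stranded reads. Library sizes leave out what STAR lists apart from genes, namely unmapped reads (2.92 to 5.58%), multimapping reads (3.74 to 5.79%), reads outside features (3.10 to 4.72%) and ambiguous reads (1.18 to 1.41%). For each gene, the authors' deposited comparison tables list a log2 fold change and an adjusted p-value, whose settings are not given in the sources used here beyond those tool names. Beyond these, 96 columns holding per-sample values were left out.

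The members and lists were chosen with earlier results of these data known. In edgeR 4.0.16 (R 4.3.3), filtering by group left 15221 genes. TMM scaling, robust quasi-likelihood fitting of all 24 libraries with 1 coefficient per group and Benjamini-Hochberg adjustment over all tested genes gave 11 comparisons, called at an adjusted p below 0.05. Where no other tool is named, a printed p comes from this edgeR fit. CPM used TMM-scaled library sizes, and a count of 0 allows 3 counts, or 0.0518 to 0.159 CPM by library, for counting error only. Role scores are means of log2(CPM + 1). Exon lengths came from GENCODE mouse release 21 and promoters from RefSeq. Values per library are given for the 2 members of each role with the smallest p for Dex and for LPS in wild type, for the 3 inhibitors and both D-type cyclins, and other members named with values per library were chosen after their values were seen. From the other lists, up to 3 called genes per comparison with the largest change are named. Alternatives were DESeq2 1.42.0, other scaling, filters, strands, sample subsets and the replicate number.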

Additional observations from a re-analysis of the deposited data

Results flagged for a closer look

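The effect of Dex differed between GR Zn/Zn and wild type in 10 results, each by a test of the difference between the genotypes' Dex effects in edgeR's quasi-likelihood fit. In all 10 the Dex effect was lower in GR Zn/Zn. Without LPS the difference on the log2 scale was -0.82 for Cdkn1c (adjusted p = 0.0242), -0.33 for Ccnd1 (0.0076), -0.32 for Rrm2 (0.00396) and -0.24 for Rrm1 (0.0184). With LPS present it was -0.89 for Cdkn1c (0.0147), -0.42 for Cdkn2c (0.0229), -0.33 for Cdc6 (0.0387), -0.31 for Rrm2 (0.00401), -0.24 for Ccnd1 (0.0471) and -0.22 for Rrm1 (0.024). Rrm2 with and without LPS, and Ccnd1 without LPS, kept their calls in 21 of 21 alternatives. Without LPS, Cdkn1c kept its call in 15 of 21 and Rrm1 in 14. Under LPS, Cdkn1c kept it in 20 of 21, Cdkn2c in 14, Rrm1 in 8, and Cdc6 and Ccnd1 in 5 each. Several of these genes started from other levels in the mutant. In vehicle, Cdkn1c was lower there and Ccnd1, Rrm1, Cdc6 and Cdkn2c were higher, while Rrm2 was not called (adjusted p = 0.0531). With LPS alone, the start of the results under LPS, Cdkn1c was lower (-1.19) and Rrm1 (0.19) and Cdkn2c (0.50) were higher. Ccnd1, Cdc6 and Rrm2 were not called with LPS alone (adjusted p = 0.146, 0.296 and 0.63). Such differences in starting level were not separated from the Dex effect.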

How the results depend on the processing

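Of 61 calls of single members, 30 were kept under every alternative run, and 975 alternative values gave 829 on the same side of the threshold, 146 that missed it and 0 reversed. Fitting only the groups compared called 14 members for Dex in wild type (7 higher, 7 lower; 32.8% of all genes), 23 for LPS in wild type (8 higher, 15 lower; 48.3%), 2 for Dex under LPS in wild type (10.9%) and 2 for the genotype difference of Dex under LPS (7.13%). Without the 5 libraries that stood apart, which leaves 1 library in the wild-type Dex and LPS group and assumes that it varies like the others, the counts were 13 for Dex in wild type (27.5%), 21 for LPS in wild type (7 higher, 14 lower; 42.4%), 28 for genotype in vehicle (29.3%) and 9 for the genotype difference of Dex (4 higher, 5 lower; 13.9%). With no filter on low counts they were 4 for Dex under LPS in wild type (9.88%) and 2 for each genotype difference of Dex (3.29% without and 4.91% with LPS). The genotype difference of Dex under LPS had 3 calls with a term for the library number series (10.9%) and 3 with unstranded counts (10.1%). The cause of these moves was not tested.

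Leaving out 1 library at a time gave the following counts of members, each with the share of all genes called. Dex in wild type had 3 to 5 (9.89 to 10.5%), with 3 without Dex replicate 1 or vehicle replicate 3. Dex under LPS in wild type had 4 to 10 (15.7 to 28.6%), with 4 without LPS replicate 3. LPS had 5 to 6 in wild type (20.8 to 21.6%) and 12 to 15 in GR Zn/Zn (30.2 to 34.3%). Genotype in vehicle had 15 to 18 (14.5 to 16.8%). The genotype difference of Dex had 2 to 4 (5.62 to 6.56%), with 2 without wild-type Dex replicate 1. Under LPS this difference had 2 to 7 (8.17 to 12.5%). Counts were 0 throughout for Dex in GR Zn/Zn with or without LPS and the genotype difference of LPS. They were also 0 for the difference between Dex with and without LPS in wild type.

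With the replicate number as a block, the counts were 5, 8 and 8 for Dex, Dex under LPS and LPS in wild type. The shares of all genes called there were 12.7%, 20.4% and 25.6%. LPS in GR Zn/Zn had 13 (35.9%) and genotype in vehicle 17 (18.1%). The genotype difference of Dex had 4 calls without LPS (6.66%) and 5 with LPS (9.91%), where Ccnd1 was lost (adjusted p = 0.0668). Same-numbered libraries correlated at -0.52 to 0.40, and 8 of 24 libraries correlated best with their own number, so the numbers were not taken to pair the libraries. With 3 libraries per group, a member without a call may still have changed by an amount within its own interval.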

Other observations

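Cell cycle genes outside the 35 members were read from 4 further lists: 39 replication genes, 38 mitosis genes, 10 G1 drivers and 18 brakes of the cycle, all tested. With Dex in wild type, 4 brakes rose and 1 fell, while 7.92% of all tested genes rose and 5.24% fell. Wee1, the kinase that blocks Cdk1 before mitosis, was read at 23.4, 20.4 and 19.9 CPM in vehicle and 42.5, 42.4 and 42.2 CPM with Dex (1.00 ± 0.07, adjusted p = 3.05e-10). In GR Zn/Zn, Wee1 stood at 19.8, 19.1 and 18.4 CPM and then 17.2, 17.9 and 17.6 CPM, and the genotype difference of its Dex effect was -1.12 ± 0.10 (adjusted p = 4.81e-08). E2f6, a repressor of the E2F family, rose by 0.59 ± 0.05 and the growth inhibitor Btg1 fell by 0.41 with Dex in wild type. Of the G1 drivers, Ccnd3, another D-type cyclin, rose (0.52 ± 0.10, adjusted p = 0.000509) and Skp2 fell by 0.22. Of the 39 replication genes 2 rose and 2 fell, and of the 38 mitosis genes 1, Anln, rose (0.28), beside the same shares of all genes.

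With LPS in wild type, 3 G1 drivers rose and 0 fell, among them Cdk6 (1.02 ± 0.09, adjusted p = 7.19e-09) and Myc (0.78 ± 0.09, adjusted p = 3.01e-07). Of the 39 replication genes 2 rose and 6 fell. Over all genes, 14% rose and 12.4% fell. The replication genes that fell included Dna2 (-0.49) and Gmnn (-0.42), which restrains Cdt1. Cdkn1a, a Cip/Kip inhibitor like Cdkn1b, rose with LPS by 0.32 ± 0.05 in wild type (adjusted p = 4.84e-05, named after its value was seen) and by 0.47 ± 0.05 in GR Zn/Zn (adjusted p = 1.3e-07). In GR Zn/Zn with LPS, Myc rose by 1.19 and Cdk6 by 1.11, and 0 replication genes rose and 15 fell, among them Pole2 (-0.59). There 19% of all genes rose and 17.7% fell. In vehicle, GR Zn/Zn cells had 16 mitosis genes higher and 0 lower and 13 replication genes higher and 0 lower, among them Cdc25b (0.38), Rfc5 (0.35) and Pola1 (0.35), while 0 brakes were higher and 5 lower, among them Btg2 (-0.35). Among the further G1 drivers, the called genes with the largest changes there were all lower in GR Zn/Zn. These were Cdk6 (-0.39), Cdc25a (-0.20) and E2f3 (-0.20). Over all genes in this vehicle comparison, 8.69% were higher in GR Zn/Zn and 10.1% lower.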
